A study of Caenorhabditis elegans with 24 samples.

Results

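The vitellogenin genes vit-1 to vit-6 of Caenorhabditis elegans code for yolk proteins, which the adult hermaphrodite intestine makes and secretes for uptake by growing oocytes. Background knowledge places their transcription in the intestine of late larvae and adults, under intestinal GATA factors, and not in muscle. Emerin, the product of emr-1, is a protein of the inner nuclear membrane, and chromatin that lies against the nuclear envelope is often silent. The 6 genes were followed in a DamID experiment, in which the bacterial methyltransferase Dam is fused to a protein and methylates GATC sites near it. All 10 kb bins that overlap a vit gene in the ce11 genome were taken, whatever their values. These were 8 bins at 5 loci, of 10028 nuclear bins used, and the 5 bins on each side of every locus added 50 flanking bins.

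Dam fused to emerin (Dam-EMR) was compared with GFP fused to Dam (GFP-Dam), which marks accessible chromatin anywhere in the nucleus and is called free Dam here. Both stood behind the hsp-16.41 heat shock promoter, used without induction, and recombination by a FLP recombinase under the muscle promoter myo-3 switched them on. All 8 worm strains shared this system and were harvested as L3/L4 larvae after 26 h at 22.5 °C. Each fusion was measured in 4 genotypes with 3 biological replicates: GFP::LMN-1, a tagged wild-type lamin (Dam-EMR in strain GW1480, GFP-Dam in GW1481); GFP::LMN-1 with the cec-4(ok3124) mutation (GW1482 and GW1483); GFP::LMN-1 with the Y59C substitution (GW1508 and GW1485); and Y59C with the cec-4 mutation (GW1486 and GW1487). CEC-4 is a chromodomain protein that anchors chromatin methylated at histone H3 lysine 9 to the envelope. The replicates were 3 rounds in which all strains were grown side by side. Every strain carried a GFP-tagged lamin, no transcript was measured, and each genotype and fusion was a separate worm strain. The design text names the intestine where the sample labels name body wall muscle.

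The 12 Dam-EMR libraries held 35370 to 6936179 mapped reads and the 12 GFP-Dam libraries 2728755 to 19442779. The median 10 kb bin held 1 to 210 reads in Dam-EMR and 99 to 579 in GFP-Dam libraries. The shallowest library was Dam-EMR of Y59C in round 3, in which 42.5% of bins were empty. In that library 3 reads stand for 84.8 CPM (reads per 1000000 reads of the library), more than the mean free Dam level of any vit bin. Among the gene lists, free Dam was highest over body wall muscle genes. The bins of 16 body wall muscle genes had a median free Dam level of 3.65 (log2 relative to the median bin) and 14 of them lay above 0. For 15 intestine genes the median was 0.21 with 8 above 0 and for 5 pharyngeal muscle genes −0.70 with 1 above 0. Other lists outside muscle were higher: 1.91 over 13 bins of yolk pathway genes outside the vit family, with 10 above 0, and 1.22 over 6 hypodermis bins, with 5 above 0. The medians were 0.25 over 5 germline bins and 0.20 over 6 neuron bins, each with 3 above 0. A share of reads from intestinal cells was not tested.

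The genes lie on X, except vit-6 on IV. vit-2 and vit-1 are related in sequence and code for one class of large yolk polypeptide. vit-2 spans X 5101032 to 5106169 and lies wholly in the bin from 5100001. vit-1 spans X 7727889 to 7733168 and is cut by a bin border, with 2112 bases in the left bin (from 7720001) and 3168 in the right bin (from 7730001). vit-3, vit-4 and vit-5 are near-identical copies that code for the other class. vit-5 (X 3403471 to 3408603) lies wholly in the bin from 3400001. vit-4 (X 3558769 to 3563965) and vit-3 (X 3567355 to 3572549) are neighbours over 3 bins: a left bin (from 3550001) with 1232 bases of vit-4, a shared bin (from 3560001) with 3965 bases of vit-4 and 2646 of vit-3, and a right bin (from 3570001) with 2549 bases of vit-3. vit-6 (IV 8261157 to 8266459), which codes for the smaller yolk polypeptides, lies wholly in the bin from 8260001. Every bin also holds other protein-coding genes or parts of them, for example C42D8.9 and C42D8.1 beside vit-2 and cht-1, C04F6.9 and unc-78 beside vit-5, except the bin shared by vit-3 and vit-4. A value is therefore that of a 10 kb bin, not of a gene alone.

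Free Dam levels differed widely among the vit bins. Mean GFP-Dam levels over 12 libraries were 83.7 ± 20.5 CPM (SD) in the left bin of vit-1, 63.2 ± 12.7 in the vit-6 bin, 63.1 ± 14.9 in the left bin of vit-4 and 49.0 ± 19.9 in the vit-2 bin. The vit-5 bin followed with 31.7 ± 6.44 CPM and the right bin of vit-1 with 11.1 ± 6.23. The lowest levels were those of the bin shared by vit-4 and vit-3 (5.99 ± 1.69 CPM) and the right bin of vit-3 (3.44 ± 1.86). These 8 bins ran from percentile 75.5 of all bins (left bin of vit-1) to percentile 8.61 (right bin of vit-3). Their median free Dam level was 0.38 on the log2 scale relative to the median bin, with 5 of 8 above 0, beside 0.52 for all X bins and −0.49 for all IV bins. Bins next to each other in this order overlapped in the range of their 12 libraries in every case, while the left and right bins of vit-1 did not overlap. The 2 lowest bins are those that hold vit-3, a near-identical copy of vit-4 and vit-5. How the authors treated reads that map to several copies is not given in the sources used here, and the part of this in the low levels was not tested.

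**Figure D1:**
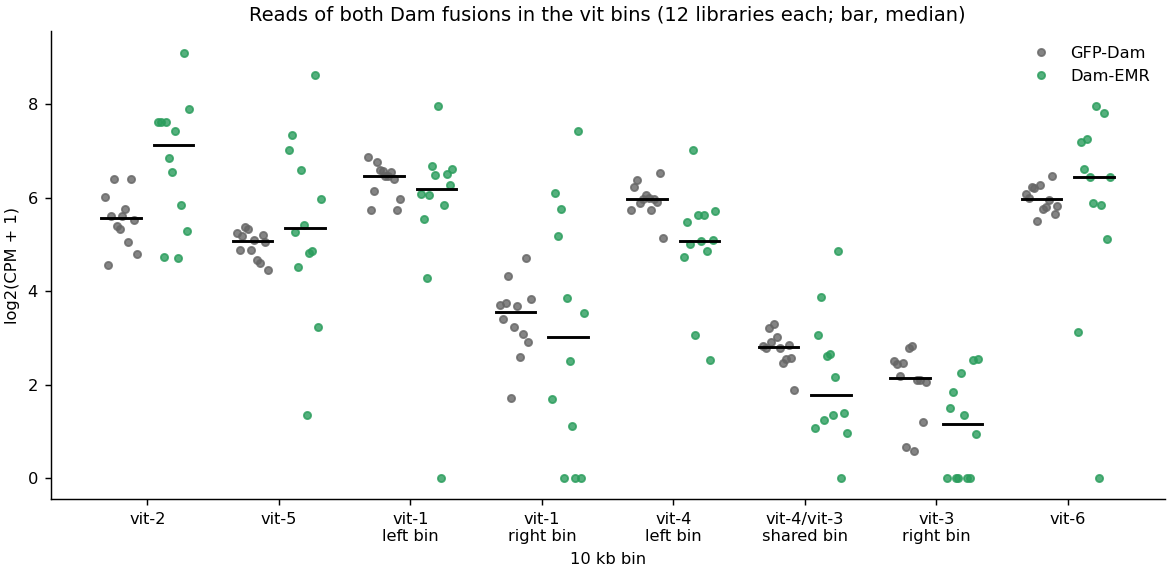
Reads in each vit bin in every library, as log2(CPM + 1), for GFP-Dam (grey) and Dam-EMR (green), 12 libraries each, with a bar at the median. GFP-Dam points span less than Dam-EMR points in each bin, though they run from 2.29 to 25.1 CPM in the right bin of vit-1. Dam-EMR points touch 0 in 5 of the 8 bins.

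Dam-EMR was more variable than free Dam in the same bins, by little in the right bin of vit-3 (SDs of 1.88 and 1.86 CPM). Its levels in the vit-2 bin averaged 158 ± 145 CPM and in the vit-5 bin 84.2 ± 110. At least 1 Dam-EMR library held 0 reads in 5 of the 8 vit bins, as in 58.7% of all bins and 49.5% of X bins, and the vit-2, vit-5 and left vit-4 bins had none. For each genotype and round, the log2 ratio of Dam-EMR to GFP-Dam CPM was taken with 1 read added to each bin and centred on the median bin of the pair, so that 0 is the median bin within a pair. Averaged over the 12 pairs, the median bin of the genome was at −0.15.

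The vit-2 bin had the highest ratio of the family, 1.47 ± 1.31 (SD, 12 pairs), and lay above 0 in 10 of 12 pairs. This placed it at percentile 96.8 of all bins and 99.0 of X bins. With GFP::LMN-1, the vit-2 bin held 195, 197 and 25.6 CPM of Dam-EMR in rounds 1, 2 and 3 against 63.6, 22.7 and 47.6 CPM of GFP-Dam, which gave centred ratios of 1.71, 3.24 and −0.62. With GFP::LMN-1 and the cec-4 mutation, Dam-EMR was at 197, 115 and 93.0 CPM and GFP-Dam at 84.2, 41.3 and 39.2, with ratios of 1.18, 2.30 and 1.20. Round 3 of GFP::LMN-1 was the only one of these 6 pairs below 0. In Y59C worms, Dam-EMR stood at 170.4, 25.1 and 56.5 CPM and GFP-Dam at 47.9, 53.3 and 32.0, with ratios of 2.59, −0.30 and 0.23. The third of these Y59C values rests on 2 Dam-EMR reads. In Y59C worms with the cec-4 mutation, Dam-EMR was at 552, 38.1 and 237 CPM and GFP-Dam at 84.1, 45.2 and 26.99, with ratios of 2.80, 0.50 and 2.78. The ranges of all 4 genotypes overlap, and the 2 genotypes with the cec-4 mutation are those with all 3 pairs above 0. By round, the vit-2 mean was 2.07, 1.43 and 0.90, with 4, 3 and 3 of 4 pairs above 0.

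The vit-2 bin stood above its surroundings. All 10 flanking bins had lower mean ratios, from −1.04 to 0.49, and vit-2 exceeded the mean of its own flanks by 1.91 ± 1.55, in 10 of 12 pairs. The next bin to the left, with pnk-4 and acn-1, had the highest flank ratio of 0.49, and the next to the right, with C42D8.1 and apl-1, was at −0.0034. At 100 kb, the bin that holds vit-2 had an edgeR log2 ratio of −0.12 (adjusted p = 0.581).

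In the edgeR quasi-likelihood test over all 24 libraries, with the ratio averaged over the 4 genotypes, the vit-2 bin was higher in Dam-EMR by 1.83 (log2, SE 0.42, adjusted p = 0.0267). It was the only one of the 8 vit bins called at an adjusted p under 0.05, where 1.28% of the 9730 bins that passed the filter on low counts, all 8 vit bins among them, were called higher and 1.43% lower. At an unadjusted p under 0.05, 2 of 8 vit bins and 20.5% of all bins passed. DESeq2, which called 9.26% of all bins, also called the vit-2 bin (1.98, adjusted p = 0.000604). The call for vit-2 was lost in limma on the pair ratios (1.50, adjusted p = 0.266), where 4 bins in all were called. It was also lost in edgeR without round 1 (1.22, adjusted p = 0.106), without round 2 (1.80, adjusted p = 0.0548) and without round 3 (1.76, adjusted p = 0.162). These fits called 410, 61 and 0 of all bins, beside 264 in the main fit, so no bin at all passed without round 3. The call was lost too without the round 2 pair of GFP::LMN-1 (1.53, edgeR adjusted p = 0.0831, 64 bins called in all) or the round 1 pair of Y59C (1.31, edgeR adjusted p = 0.0772, 217 bins called in all). The call for vit-2 held in 10 of the 12 cases in which 1 pair was left out, among them the shallow pair of Y59C in round 3 (1.71, edgeR adjusted p = 0.0430).

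**Figure D2:**
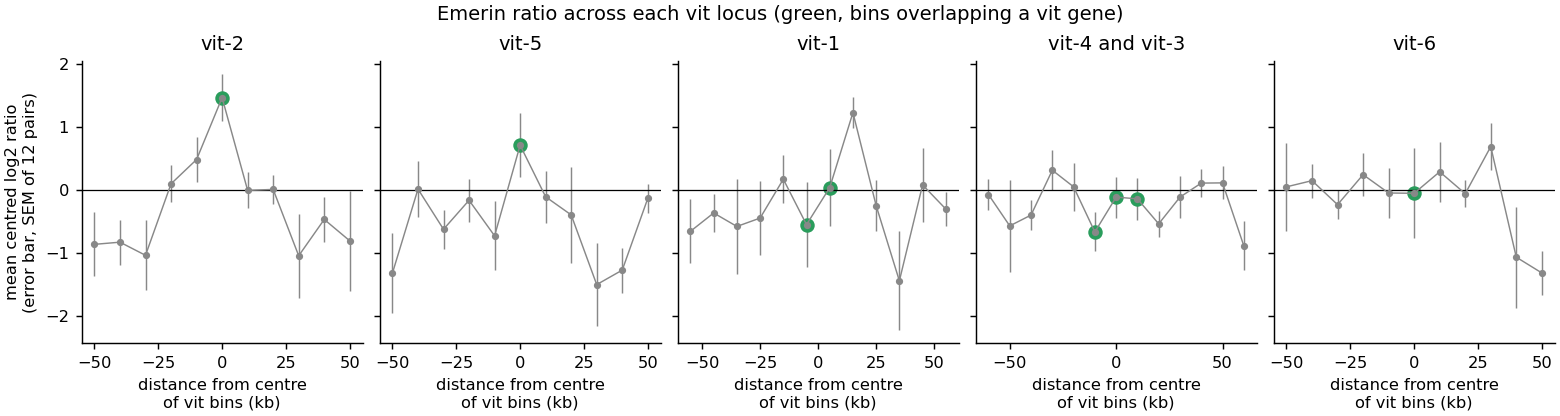
Mean centred log2 ratio (12 pairs, error bars SEM) of the vit bins (green) and the 5 flanking bins on each side (grey), by distance from the centre of the vit bins. The vit-2 and vit-5 bins are the highest points of their panels, while the bins of vit-1, vit-4, vit-3 and vit-6 lie within the range of their flanks.

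The left bin of vit-1 had a mean ratio of −0.55 ± 2.32 and lay above 0 in 5 of 12 pairs. The lowest pair was Y59C in round 2, with a centred ratio of −7.05: its Dam-EMR library held 0 reads in the bin, where the matching GFP-Dam library held 523. At the GFP-Dam share, the 2589969 reads of that Dam-EMR library would have given 226 reads, and the 10 flanks held a median of 221, with 2 of them at 0. The other 11 pairs of the left vit-1 bin ran from −1.64 to 2.27, the highest being Y59C in round 1. In the averaged edgeR test its log2 ratio was 0.09 (SE 0.47, adjusted p = 0.932). The right bin of vit-1 had a mean ratio of 0.04 ± 2.12, was above 0 in 6 of 12 pairs and held 0 Dam-EMR reads in 3 libraries, with an edgeR value of 0.98 (SE 0.80, adjusted p = 0.514). Without the round 1 pair of Y59C with the cec-4 mutation the right bin was at 0.026. In the right bin every genotype had pairs on both sides of 0, although the only Y59C pair above 0 (0.73, round 3) had 0 Dam-EMR reads in the shallowest library, and its sign is set by the added read. The bin next to it, with K09F5.1 and ref-2, was higher than either: its mean ratio was 1.23, with 11 of 12 pairs above 0, and its edgeR value of 1.27 fell short of the threshold (adjusted p = 0.0528).

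The vit-5 bin came second in the family, with a mean ratio of 0.71 ± 1.74 and 9 of 12 pairs above 0. In GFP::LMN-1 worms, Dam-EMR was at 128, 163 and 37.8 CPM in rounds 1 to 3 and the centred ratios were 1.89, 2.63 and 0.35. With the cec-4 mutation beside GFP::LMN-1, Dam-EMR was at 21.9, 95.9 and 42.0 CPM and the ratios were −0.86, 2.13 and 0.50. Y59C worms had 1.55, 27.03 and 28.3 CPM and ratios of −2.68, 0.93 and 0.09, of which the first and the third each rest on 1 Dam-EMR read. Those with Y59C and the cec-4 mutation had 395, 8.41 and 61.6 CPM and ratios of 3.54, −1.17 and 1.20. GFP-Dam stayed between 21.0 and 40.7 CPM over all 12 libraries, while Dam-EMR ran from 1.55 to 395. Only GFP::LMN-1 had all 3 pairs above 0, and every other genotype had 1 below.

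The vit-5 bin was above all 10 of its flanks, which ran from −1.50 to 0.02, and exceeded their mean by 1.33 ± 1.81 in 9 of 12 pairs. Its edgeR value averaged over genotypes was 1.17 (SE 0.46, unadjusted p = 0.0172, adjusted p = 0.146), which missed the threshold. It was 0.54 without the round 2 pair of Y59C, 0.64 without the round 1 pair of Y59C with the cec-4 mutation and 0.41 without round 2 as a whole. The 100 kb bin that holds vit-5 had a value of −0.084.

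The bins of the copies vit-4 and vit-3 had mean ratios below 0, at percentiles 20.2 (left), 52.5 (shared) and 50.8 (right) of all bins. The left bin of vit-4 had a mean ratio of −0.66 ± 1.07, was above 0 in 3 of 12 pairs and had an edgeR value of −0.52 (SE 0.37, adjusted p = 0.443). The bin that vit-4 and vit-3 share had a mean ratio of −0.11 ± 1.13 with 5 of 12 pairs above 0, from a Dam-EMR level of 5.83 ± 8.04 CPM, and an edgeR value of −0.59 (SE 0.53, adjusted p = 0.560). The highest pair of this shared bin, 2.35 in round 3 of Y59C, rests on 1 Dam-EMR read, where the GFP-Dam share would have given 0.17. In the right bin of vit-3, Dam-EMR averaged 1.68 ± 1.88 CPM and 5 of 12 libraries held 0 reads. Its ratio of 1.90 in round 3 of Y59C comes from 0 reads in the library of 35370, and so is set by the read that was added. Across 12 pairs the right vit-3 bin averaged −0.14 ± 1.13, with an edgeR value of −1.17 (SE 0.78, adjusted p = 0.412). That value was −3.05 without round 3, −1.82 without round 1 and −0.72 without round 2, −2.58 without the round 3 pair of GFP::LMN-1 cec-4 worms and −2.18 without the round 1 pair of Y59C. These 3 bins lay among their 10 flanks, whose ratios ran from −0.88 to 0.32. Summed over both bins of each gene, the ratio was −0.58 ± 0.98 for vit-4, −0.28 ± 1.07 for vit-3 and −0.10 ± 1.87 for vit-1.

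The vit-6 bin had a mean ratio of −0.05 ± 2.47, with 8 of 12 pairs above 0 and flanks from −1.31 to 0.69. Its ratios were −2.82, 1.36 and 0.65 in GFP::LMN-1 and 1.02, 1.79 and −0.44 with the cec-4 mutation. They were 2.98, −6.39 and −0.70 in Y59C and 1.46, 0.20 and 0.28 in Y59C with the cec-4 mutation. The lowest of these again came from Dam-EMR of Y59C in round 2, with 0 reads in the bin against 330 in GFP-Dam, where the GFP-Dam share would have given 142 reads and none of the 10 flanks was empty. The same library held no read in the left bin of vit-1, on another chromosome, nor in the right bin of vit-3, where GFP-Dam held 3. Of all bins, 21.4% were empty in that library. The median vit-6 pair ratio was 0.47, and its edgeR value was 0.89 (SE 0.54, adjusted p = 0.355). Without the round 1 pair of Y59C the edgeR value of vit-6 was −0.74, without the round 1 pair of Y59C with the cec-4 mutation 0.56 and without round 1 as a whole −0.88. Over the 8 vit bins, the median edgeR value averaged over genotypes was 0.49, beside −0.05 for all bins tested, and 5 of 8 were above 0. The mean centred pair ratios gave a median of −0.080 over the same 8 bins, with 3 above 0, beside −0.15 for all bins.

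**Figure D3:**
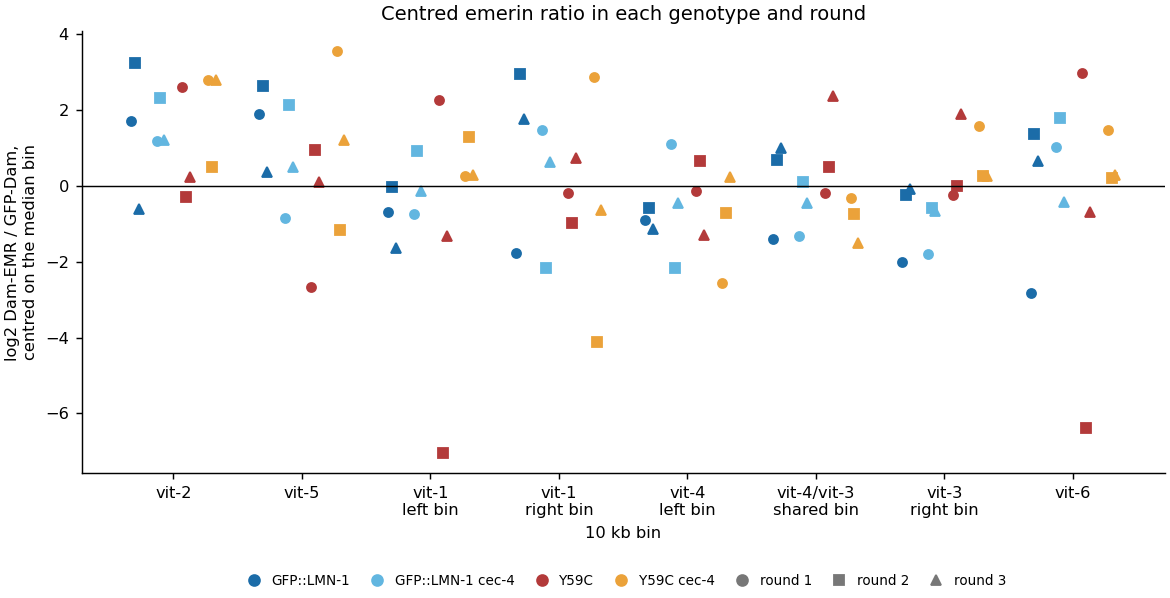
Centred log2 ratio of Dam-EMR to GFP-Dam in each vit bin for the 12 pairs, coloured by genotype, with a marker shape for each round. The vit-2 points lie mostly above 0, and the lowest points are the Y59C round 2 pair in the left vit-1 bin (−7.05) and the vit-6 bin (−6.39).

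None of the 50 flanking bins was called by edgeR in the averaged test, with 8 (16.0%) at an unadjusted p under 0.05, where 20.5% of all bins passed. limma called 0 of them, and DESeq2, which called 9.26% of all bins, called 2 higher and 4 lower.

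Within single genotypes the vit-2 bin was higher in Dam-EMR by 1.68 (log2, SE 0.84) with GFP::LMN-1, 1.46 (SE 0.83) with GFP::LMN-1 and the cec-4 mutation, 1.45 (SE 0.85) with Y59C and 2.75 (SE 0.87) with both mutations. The vit-5 bin had values of 1.76, 0.72, −0.55 and 2.76 in the same order. None passed the edgeR threshold, and 0 of 8 vit bins was called in any genotype. Of all bins, edgeR called 0% with GFP::LMN-1, 0% with GFP::LMN-1 and the cec-4 mutation, 0.236% with Y59C and 0% with Y59C and the cec-4 mutation. At an unadjusted p under 0.05, the vit bins that passed were 0, 0, 0 and 2 of 8. Over all bins the shares at that unadjusted p were 2.91%, 4.19%, 21.0% and 10.9%. limma called 0 vit bins and 0% of all bins in each genotype. DESeq2 called 0 in the first 3, and in Y59C with the cec-4 mutation it called vit-5 (3.06, adjusted p = 0.0411) and vit-2 (3.02, adjusted p = 0.0354). Of all bins with an adjusted p, DESeq2 called 0.0207%, 0.168%, 9.22% and 1.85% in the 4 genotypes. Without round 1, the edgeR value of vit-5 in Y59C with the cec-4 mutation was 0.47. With GFP::LMN-1 and the cec-4 mutation it was 0.026 without round 2, and with Y59C it was −2.63 without round 2 and 0.28 without round 1. The vit-2 value was 1.09 with GFP::LMN-1 without round 2, and with Y59C it was −0.35 without round 1 and 0.84 with the replicate block.

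The design sets Y59C against GFP::LMN-1, and the cec-4 mutation against intact cec-4 in each lamin background, to ask how the mutant lamin and the loss of the anchor alter contact with emerin. For the vit genes no such difference passed the test. Between Y59C and GFP::LMN-1 the edgeR log2 differences of the ratio ran from −2.96 (right bin of vit-1) to 1.56 (left bin of vit-1). In the left bin the mean centred ratios went the other way, −2.03 in Y59C and −0.79 with GFP::LMN-1. The Y59C mean there includes the round 2 pair with 0 Dam-EMR reads. In the right bin the means were −0.15 and 0.97, and Y59C held 3, 3 and 0 Dam-EMR reads. edgeR called 0 of 8 vit bins (smallest adjusted p = 0.571) and 0.0103% of all bins. The vit-2 difference was −0.23 with an SE of 1.17. The cec-4 mutation with GFP::LMN-1 gave differences from −1.04 (vit-5) to 1.14 (left bin of vit-4) and −0.22 (SE 1.15) for vit-2, with 0 of 8 vit bins and 0% of all bins called by edgeR.

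In the Y59C background, the cec-4 mutation went with the widest edgeR differences, from −2.02 (bin shared by vit-4 and vit-3) to 3.62 (right bin of vit-1). In the right bin of vit-1 the mean centred ratios went the other way, −0.15 in Y59C and −0.63 with the cec-4 mutation added. Dam-EMR reads there were 3, 3 and 0 in Y59C and 36, 0 and 33 with both mutations. In the shared bin they were 1, 9 and 1 against 0, 7 and 3. For vit-5 the edgeR difference was 3.31 (SE 1.37, unadjusted p = 0.0222), which missed the threshold after adjustment (adjusted p = 0.276). For vit-2 it was 1.30 (SE 1.18). The vit-5 difference was 0.19 without round 1 and 5.56 without round 2, and the vit-2 difference was 2.39 without round 1. edgeR called 0 of 8 vit bins and 0% of all bins here. At an unadjusted p under 0.05, the vit bins that passed were 0 for Y59C, 0 for cec-4 with GFP::LMN-1 and 1 for cec-4 with Y59C, of 1017, 236 and 1335 bins in all. DESeq2 and limma each called 0 vit bins in all 3 differences. Of all bins, DESeq2 called 1.26% for Y59C, 0% for cec-4 with GFP::LMN-1 and 3.46% for cec-4 with Y59C, and limma called 0% in each. These comparisons share samples: the Y59C strains and the GFP::LMN-1 strains each enter 2 of them. Their SEs ran from 1.03 to 2.47 over the vit bins, beside 0.37 to 0.80 for the averaged ratio, so a missed threshold here does not show that the genotypes were alike.

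**Figure D4:**
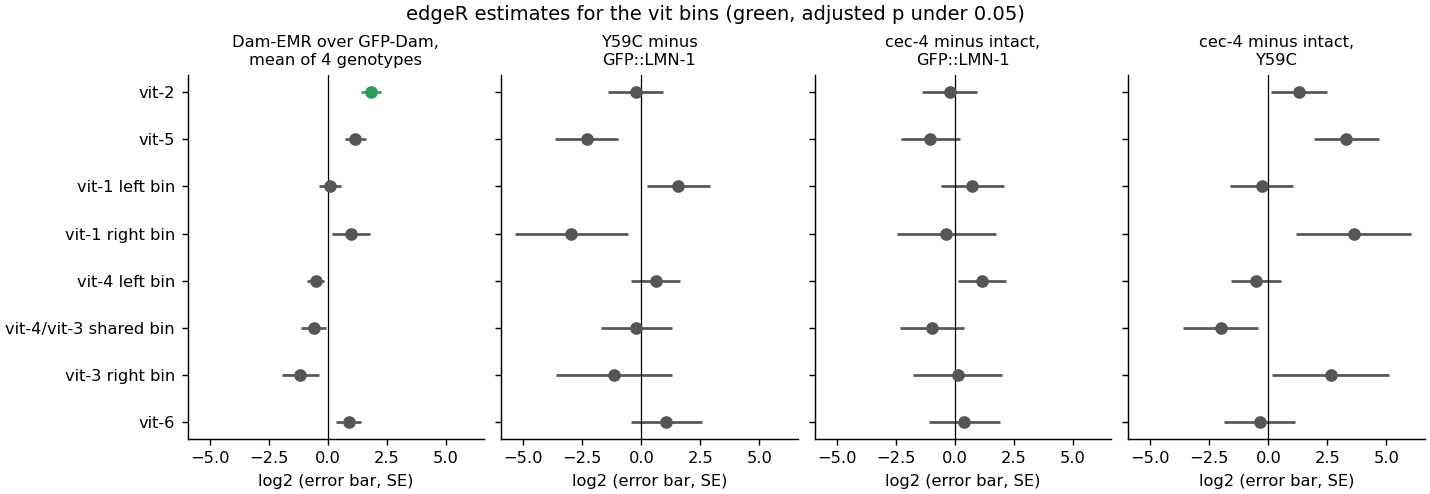
edgeR log2 estimates with SE bars for the 8 vit bins: the ratio averaged over 4 genotypes, and its difference for Y59C and for the cec-4 mutation in each lamin background. Only vit-2 in the first panel passed the threshold (green, 1.83), and the bars of the differences are much wider than those of the averaged ratio.

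At the vit bins, no difference of free Dam between genotypes passed the test. Among the 12 GFP-Dam libraries, the log2 difference of Y59C from GFP::LMN-1, averaged over cec-4 states, ran from −0.36 to 0.28 over the 8 vit bins, and that of the cec-4 mutation from −0.06 to 0.53, with SEs from 0.16 to 0.57. For vit-2 the values were 0.10 and 0.33 (SE 0.33 each). edgeR called 0 of 8 vit bins in either comparison, with 0.0102% of 9782 bins called for Y59C and 0% for cec-4. None of the 8 passed an unadjusted p under 0.05, beside 1.01% of all bins for Y59C and 1.33% for cec-4. DESeq2 called 0 of the 8 as well, beside 0.0205% and 0% of all bins. These fits had no term for round, while same-numbered GFP-Dam libraries deviated alike across bins (median r of 0.631). Differences between rounds therefore stayed in the spread, and a missed threshold here does not show that free Dam was alike.

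Genes of yolk production and uptake outside the vit family were given by the bin of their midpoint, for a list of 13. Free Dam in these bins had a median of 1.91 (log2 relative to the median bin), with 10 of 13 above 0. Averaged over genotypes, edgeR called 0 of 13 higher and 1 lower, beside 1.28% and 1.43% of all bins, and the median ratio was −0.10, beside −0.05 for all bins. The bin called lower holds sgk-1, a kinase gene that acts in TORC2 signalling, with 16.9 CPM of GFP-Dam and 6.32 CPM of Dam-EMR (edgeR log2 −3.15, SE 0.73, adjusted p = 0.0270). Its mean centred pair ratio was smaller in size, at −1.28 ± 1.55, with 2 of 12 pairs above 0. For rme-2, the oocyte receptor that takes up yolk, the edgeR value was −0.62 (SE 0.51, adjusted p = 0.515). That of dsc-4, which codes for a microsomal triglyceride transfer protein that loads lipid, was 0.38 (SE 0.23, adjusted p = 0.360), and that of elt-2, the GATA factor of the intestine, was −0.53 (SE 0.47, adjusted p = 0.555). In limma, with 0.0411% of all bins called, 0 of the 13 were called. In DESeq2, with 9.26% of all bins called, 1 was higher and 1 lower.

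**Figure D5:**
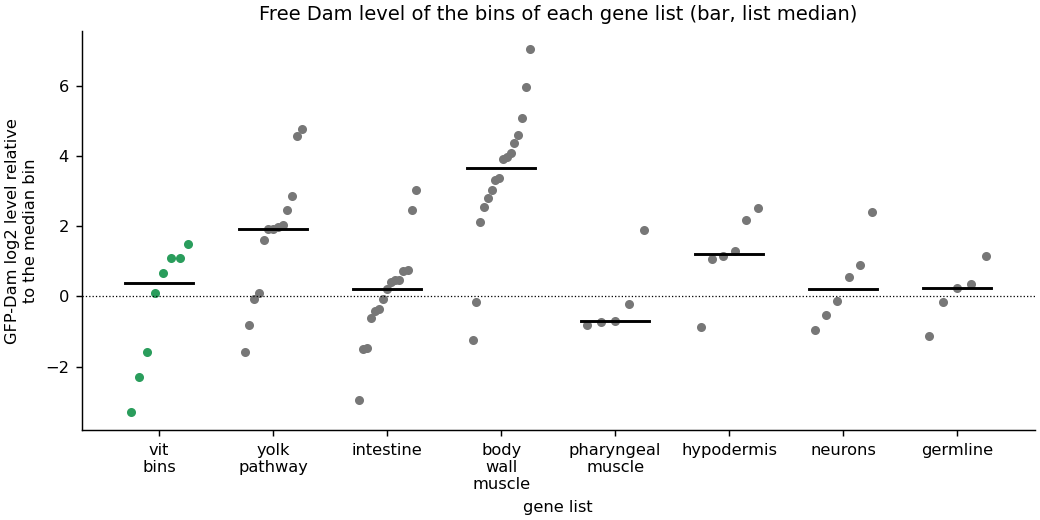
Free Dam level of each bin (mean of 12 GFP-Dam libraries, log2 relative to the median bin) for the vit bins (green) and the gene lists (grey), with a bar at each list's median. Body wall muscle bins are the highest, with a median of 3.65, and the vit bins have a median of 0.38 with 3 bins below 0.

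For the tissue lists, edgeR called 0 bins higher and 0 lower in the averaged test. Median edgeR log2 ratios were 0.24 over 15 intestine bins, −0.15 over 16 body wall muscle bins and −0.09 over 6 hypodermis bins. They were −0.15 over 6 neuron bins, 0.21 over 5 germline bins and 0.50 over 5 pharyngeal muscle bins, beside −0.05 for all bins. The mean centred pair ratios had medians of −0.088, −0.16, −0.24, −0.23, 0.12 and 0.21 in the same order, beside −0.15 for all bins. For the intestine bins the 2 measures thus differed in sign. In edgeR, the numbers with an unadjusted p under 0.05 were 3, 3, 3, 2, 0 and 2 in that order, where 20.5% of all bins passed. limma called none, and DESeq2, with 9.26% of all bins called, called 2 intestine bins and 1 hypodermis bin higher and 1 neuron bin lower.

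Among the vit bins, the left bin of vit-1 held the most free Dam reads. The 2 bins outside the vit loci with the most similar pattern over the 12 pairs were on IV from 11030001 (hrg-4, hrg-6, fkb-1 and kdin-1), with a root mean square difference of 0.718, and on II from 13440001 (tbc-14 and pqn-27), with 0.763. The median bin differed by 2.80. Each of these bins also held 0 reads in at least 1 Dam-EMR library, in 1 and 2 of the 12.

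In the authors' deposited table of 10 kb log2 ratios the vit-2 bin was at 2.03 with GFP::LMN-1, 1.44 when this was joined to the cec-4 mutation, 1.19 with Y59C and 2.44 with both mutations. Over the vit bins, entries of the authors' deposited table lay within 0.318 of the log2 of the mean of 3 ratios. The mean of the 3 log2 ratios, not centred, was 1.28, 1.31, 0.72 and 1.87. Over the 32 values of 8 vit bins and 4 genotypes, the entry in the authors' deposited table was above the mean of logs in 31 and had the opposite sign in 9. The log2 of a mean is never below the mean of logs, so entries close to the former were bound to lie mostly above. The widest gaps were in Y59C, where the authors' deposited table gives 0.47 for the left bin of vit-1 and 1.16 for vit-6 while the means of logs were −2.15 and −1.49. Both means include the round 2 pair with 0 Dam-EMR reads in the bin.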

How the data were processed

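Mapped reads per bin of the ce11 genome, a build named in the submitters' processing notes, were deposited as raw counts in 10 kb and 100 kb tables. The log2 ratios per genotype in 10 kb bins are the authors' deposited values. The aligner was not given in the sources used here. Per the labels, 200 ng of DNA was cut with DpnI for 6 h. Library totals came from the 100 kb table. The 10 kb counts did not reach these totals equally. They held as little as 77.5% in Dam-EMR (Y59C with the cec-4 mutation, round 1) and 79.2% in GFP-Dam (the same genotype, round 3). CPM values of 10 kb bins are therefore on somewhat unequal scales between libraries, which the centring takes out of the pair ratios. Mitochondrial bins and 2 bins holding 1 in all 24 libraries were left out. CPM and pair ratios (1 read added, centred on the median bin) were computed from the counts.

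The quasi-likelihood test of edgeR 4.0.16 (R 4.3.3; TMM factors, filterByExpr) was run on these counts for 8 groups of 3, with Benjamini-Hochberg adjustment over all bins. DESeq2 1.42.0 and limma 3.58.1 on pair ratios were alternatives, and the fits were tested on simulated data. Gene positions came from RefSeq (WBcel235). Named were all 6 vit genes through every bin they overlap, their flanks, any yolk list gene called and always rme-2, elt-2 and dsc-4. Members and lists were chosen with earlier results of these data known.

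Numbers pair samples, since the design text has every strain grown side by side in a replicate. Across bins, deviations of same-numbered libraries had a median r of 0.631 in GFP-Dam and 0.0859 in Dam-EMR, against −0.372 and −0.0361 for different numbers. Bins are not independent. Without molecular identifiers, PCR copies cannot be told from separate molecules, so the 3-read floor covers counting error only.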

Additional observations from a re-analysis of the deposited data

Results flagged for a closer look

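Some differences between genotypes put every pair of one genotype on the other side of 0 from every pair of another. Each genotype had only 3 pairs, and the share of all bins that separate in this way is not given here. In the right bin of vit-3, all 3 pairs of Y59C with the cec-4 mutation lay above 0, and all 3 of GFP::LMN-1 (difference of the mean centred log2 ratios 1.49) and all 3 of GFP::LMN-1 with the cec-4 mutation (difference 1.71) lay below. The edgeR estimates of these vit-3 differences were 1.49 (SE 1.98) and 1.37 (SE 1.92), and neither was called. The bin held 1, 4 and 15 Dam-EMR reads in the 3 libraries of Y59C with the cec-4 mutation and 0, 1 and 8 with GFP::LMN-1. GFP::LMN-1 with the cec-4 mutation had 0, 0 and 26 Dam-EMR reads there, with 2 GFP-Dam reads in round 2, so its pair ratios in rounds 1 and 2 are set by the added read. In the left bin of vit-1, all 3 pairs of Y59C with the cec-4 mutation lay above 0 and all 3 of GFP::LMN-1 below (difference 1.41), with an edgeR estimate of 1.28 (SE 1.34) that was not called.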

How the results depend on the processing

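The number of vit bins called in the averaged test was 1, and became 0 in 100 kb bins and in limma on pair ratios, and ran from 0 to 1 when a round or a pair was left out. Leaving out single pairs was chosen after seeing the data, except for the round 3 pair of Y59C. With DESeq2, 2 vit bins in place of 0 were called within Y59C with the cec-4 mutation. The vit-2 value was 1.61 with the replicate block (adjusted p = 0.0260 in edgeR), and the block changed no call of a vit bin. Some values changed sign. In 100 kb bins the averaged value was −0.12 for vit-2, −0.084 for vit-5 and 0.052 for the 3 bins of vit-4 and vit-3, and within genotypes vit-2 was at −0.18 with GFP::LMN-1, −0.22 when the cec-4 mutation was added to it and −0.29 with Y59C, and vit-5 at −0.39 in the second of these. The left bin of vit-1 was at −0.10 with library totals alone, −0.52 in limma, −0.038 with no filter, −0.0051 with the replicate block, and from −1.49 to 0.12 with pairs or rounds left out. For the right bin of vit-1 that range was −0.17 to 1.04, and for vit-6 it was −0.88 to 1.01, with −0.018 in limma. Within Y59C, leaving out rounds gave −0.35 to 1.91 for vit-2 and −2.63 to 0.28 for vit-5. The vit-2 difference of Y59C ran from −1.97 to 0.82. For cec-4 with GFP::LMN-1 it was 0.12 in limma and −0.79 to 0.25 without single rounds. The causes were not tested. The number of bins called among all bins in the averaged test was 264 in edgeR, 895 in DESeq2, 94 of the 100 kb bins and 4 in limma, and 0 to 410 without single rounds. Differences between genotypes had SEs of 1.03 to 2.47 for the ratio at vit bins and 0.16 to 0.57 for free Dam.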
